A study of Mus musculus with 9 samples.

Results

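The genes described here encode the stress sensors, chaperones, disulfide isomerases, degradation factors and import machinery of the endoplasmic reticulum (ER), the set that is known together as the unfolded protein response and ER folding machinery. They are 32 named genes, taken by symbol from a deposited table of 54393 mouse gene identifiers. All 32 passed the filter on low counts and are among 14873 genes tested. 1 symbol, Ddit3, stands on 2 rows of the table, and its second row, an overlapping locus with at most 3 counts in any library, was not tested.

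The antibiotics group came from mice given antibiotics that stay in the gut, in 4 libraries labelled replicates 1, 2, 3 and 5. The control group came from mice without antibiotics, in 5 libraries labelled replicates 1 to 5. All mice were of the strain written C56Bl/6j in the labels and ate the purified diet AIN-76a. The agents, their dose and duration, and the age and sex of the mice were not stated in the sources at hand. The comparison asks which liver transcripts differ between mice given these antibiotics and mice without them. No measure of the gut microbiota was among the values used here.

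Proteins that a cell secretes or places in membranes enter the ER through the SEC61 channel, fold there with the help of chaperones and disulfide isomerases, and are sent to the proteasome if they fail to fold. The sensors IRE1, PERK and ATF6 in the ER membrane respond to unfolded protein by raising the transcription of these same helpers, through the factors XBP1, ATF4 and cleaved ATF6, while PERK also slows translation. Hepatocytes secrete albumin, lipoproteins and clotting factors in bulk, so they hold a large ER and use this machinery at high levels without stress.

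Transcription of many of these genes is known to run through the ER stress element (ERSE), written CCAAT, then 9 bases of any kind, then CCACG, or through the shorter ERSE-II, written ATTGG, 1 base, CCACG. RefSeq promoter windows (GRCm38.p6, 250 bases before to 50 bases after the transcription start, counted as +1) were at hand for 26 of the 32 genes, and not for Atf6, Manf, Hyou1, Derl1, Sec61a1 and Sec11c. On either strand, 11 of the 26 held 1 of the 2 elements, against 49 of 27025 genes with a window, which is 0.181%. The elements were found for Hspa5, Dnajc3, Creld2, Hsp90b1, Canx, Calr, Pdia6, Syvn1 and Derl3 (ERSE) and for Herpud1 and Dnajb11 (ERSE-II). The 3 with the smallest p-values for the antibiotics comparison are printed to show what the elements look like, and the Bhlha15 window is printed because that gene carried the largest change. All are 5′ to 3′ on the plus strand, with the element in capitals.
Hspa5, chr2:34771840-34772139, ERSE at -65 to -47: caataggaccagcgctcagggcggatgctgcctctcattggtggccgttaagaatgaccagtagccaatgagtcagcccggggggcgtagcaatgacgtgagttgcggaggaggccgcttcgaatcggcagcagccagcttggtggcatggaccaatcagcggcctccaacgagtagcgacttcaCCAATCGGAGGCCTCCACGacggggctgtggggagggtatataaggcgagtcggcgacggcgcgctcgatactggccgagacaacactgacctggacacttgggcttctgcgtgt
Herpud1, chr8:94386179-94386478, ERSE-II at -52 to -42: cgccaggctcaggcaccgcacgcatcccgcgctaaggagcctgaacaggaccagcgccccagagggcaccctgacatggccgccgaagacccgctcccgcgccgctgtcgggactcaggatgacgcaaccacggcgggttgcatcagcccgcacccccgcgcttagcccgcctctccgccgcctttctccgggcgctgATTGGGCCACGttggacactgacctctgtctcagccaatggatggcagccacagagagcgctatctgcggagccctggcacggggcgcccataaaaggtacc
Pdia6, chr12:17266339-17266638, ERSE at -98 to -80: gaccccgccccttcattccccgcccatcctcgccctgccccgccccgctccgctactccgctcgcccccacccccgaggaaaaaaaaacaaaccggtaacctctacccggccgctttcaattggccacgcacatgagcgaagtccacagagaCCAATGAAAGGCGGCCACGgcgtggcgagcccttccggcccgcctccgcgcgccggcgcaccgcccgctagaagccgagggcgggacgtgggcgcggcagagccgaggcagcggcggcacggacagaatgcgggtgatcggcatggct
Bhlha15, chr5:144190036-144190335, ACGTG at 20 to 24: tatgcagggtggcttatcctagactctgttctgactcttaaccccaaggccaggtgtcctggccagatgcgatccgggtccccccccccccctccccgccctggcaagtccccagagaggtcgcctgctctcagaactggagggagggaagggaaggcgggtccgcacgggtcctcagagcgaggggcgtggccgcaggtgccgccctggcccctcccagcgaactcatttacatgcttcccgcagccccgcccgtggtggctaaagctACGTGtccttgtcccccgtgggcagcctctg
The Bhlha15 window held neither element. Its capitals mark the letters ACGTG, a core bound by XBP1 and many other factors, at 20 to 24 bases past the start. That search was chosen after the window had been seen, and the core is common: 11 of the 26 genes and 21.8% of all genes hold it on either strand. A match in letters shows no binding.

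Between the groups, 1 of the 32 genes passed the test, where 1.05% of all genes tested were called lower. Bhlha15, a transcription factor of secretory cells that is a known XBP1 target, fell 7.70-fold with antibiotics. The other 31 did not pass, yet most stood lower: 29 of the 32 had a log2 fold change below 0 (antibiotics over control), against 51.4% of all genes tested. The median was -0.18 over the 32 genes, -0.17 without Bhlha15 and -0.01 over all genes tested.

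In the quasi-likelihood test of edgeR, adjusted by Benjamini-Hochberg over all tested genes, 1 of 32 was called lower and 0 of 32 higher, where 1.63% of all genes were. Of the 32, 0 were higher at an unadjusted p under 0.05 in edgeR, where 9.6% of all genes were. DESeq2 called 0 of the 32 higher, where it called 3.47% of all genes, and limma-voom 0 of the 32, where it called 1.82%. At an unadjusted p under 0.05, 15 of the 32 were lower, where 8.87% of all genes were. In 10 of the 32 every antibiotics library lay below every control library, where 4.29% of all genes were apart in that direction. In 0 of the 32 did every antibiotics library lie above, where 4.59% of all genes did. With DESeq2, 11 of the 32 were called lower, where 3.09% of all genes were. Those were Bhlha15, Eif2ak3, Ern1, Atf6, Manf, Hyou1, Dnajb9, Hspa5, Pdia4, Ssr1 and Sec61a1. With limma-voom, 2 of the 32 were called lower, Bhlha15 and Eif2ak3, where 0.955% of all genes were. In what follows, a gene passed or did not pass in edgeR unless another tool is named. The genes were chosen with earlier results of these data known, so the counts describe the list and are not a test of it.

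**Figure D1:**
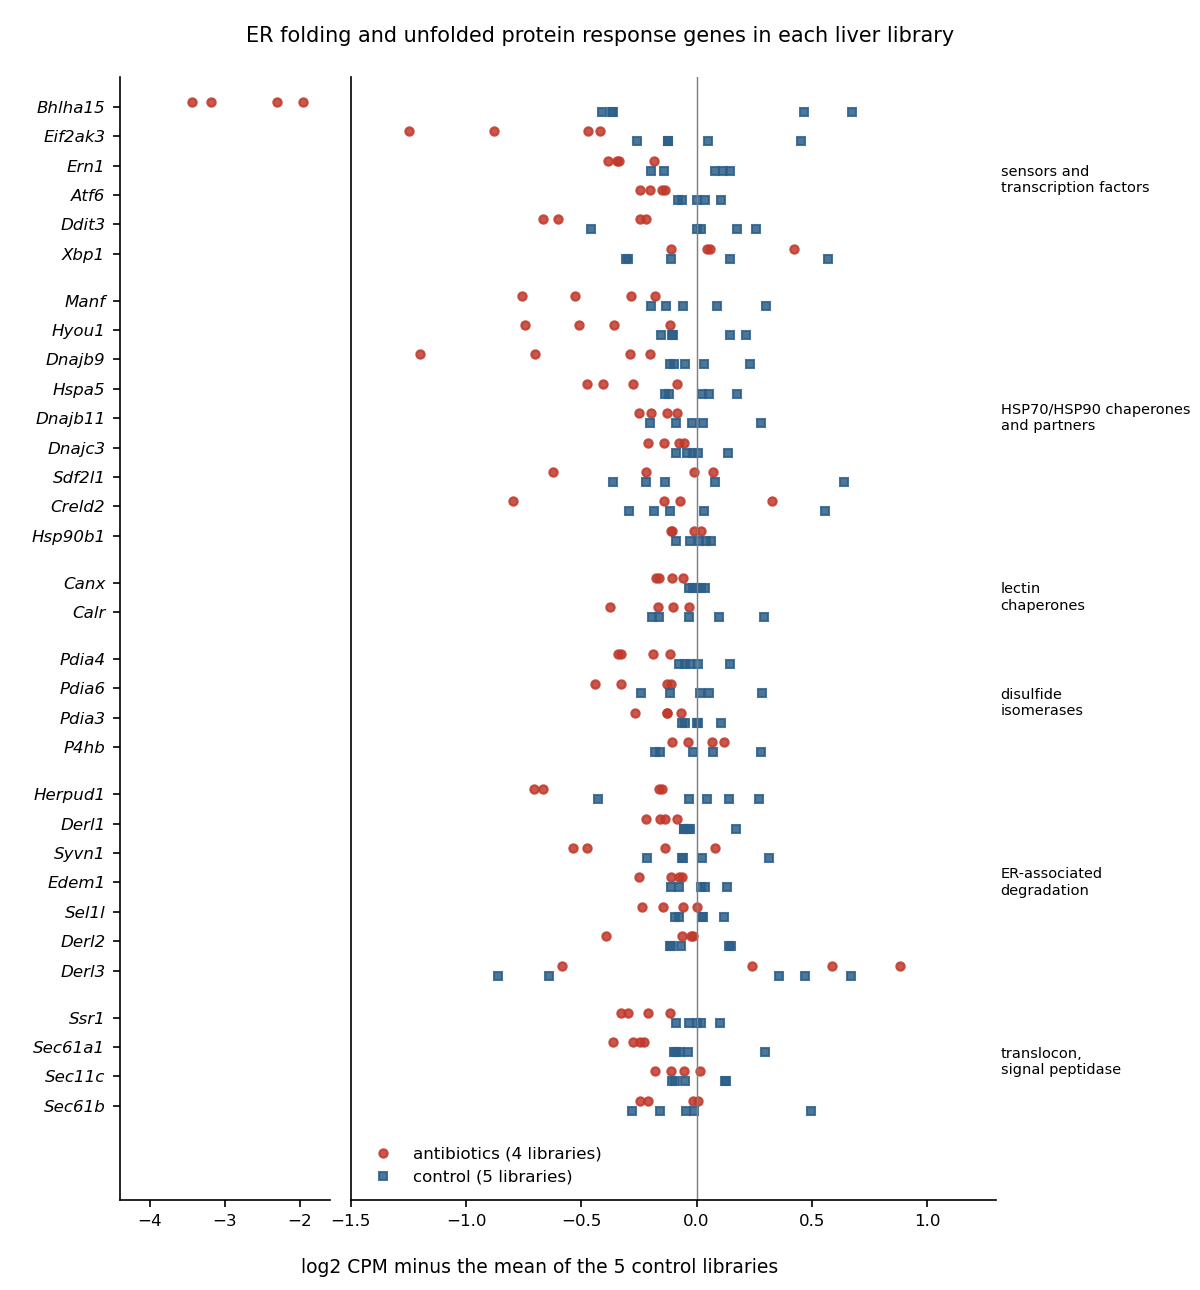
Level of each of the 32 genes in each library, as log2 CPM (CPM, a count scaled to library size) minus the mean of the 5 control libraries, with antibiotics libraries as red circles and control libraries as blue squares; the axis is split and the left panel has its own scale. The 4 antibiotics libraries of Bhlha15 stand in the left panel, far below the controls, while most other genes show antibiotics circles shifted left of 0 with overlap between the groups in 22 of the 32 genes.

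The libraries of a group did not all stand at the same level. Averaged over the 31 genes without Bhlha15, the log2 CPM relative to the control mean was -0.07, -0.23, -0.29 and -0.26 in antibiotics libraries 1, 2, 3 and 5. In control libraries 1 to 5 it was -0.02, -0.02, 0.00, -0.10 and 0.13. Antibiotics library 1 thus lay inside the control range, and the other 3 lay below it. Antibiotics library 1 was the highest of its group for 18 of the 32 genes. Control library 5 was the highest of all 9 for 18 genes, while the lowest of all 9 was antibiotics library 5 for 10 genes, library 2 for 9 and library 3 for 8. In bulk tissue, fewer cells of a type and less RNA per cell cannot be told apart.

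The score of mitochondrially encoded mRNAs, computed the same way, was 0.35, 0.58, 0.41 and -0.06 in antibiotics libraries 1, 2, 3 and 5. In control libraries 1 to 5 it was 0.08, -0.14, 0.27, -0.05 and -0.16. Whether this score reflects RNA quality or a difference between the groups in the liver itself was not tested. Antibiotics libraries 1, 2 and 3 scored above every control, and library 5 lay within the control range. The part of this score in the ER gene levels was not tested. The hepatocyte markers summed to 104529 to 114787 CPM in antibiotics libraries and 109896 to 122466 CPM in control libraries. The largest part of this sum is Alb, at 59992 ± 4532 CPM with antibiotics and 65378 ± 5510 CPM in controls. Of the 10 markers, 8 had log2 fold changes below 0, beside 51.4% of all genes, and 2, Cps1 and Apoa1, above. None was called by edgeR, and Cps1 was higher at an unadjusted p of 0.0282. The 10 markers of Kupffer cells and macrophages summed to 231 to 291 CPM with antibiotics and 221 to 662 CPM in controls, with control library 2 apart from the rest at 662. All 10 had log2 fold changes below 0, with a median of -0.43, and 0 were called by edgeR or lower at an unadjusted p under 0.05. Their part in the ER gene levels was not tested. Total estimated counts were 15422891, 18001886, 18504624 and 59179622 in antibiotics libraries 1, 2, 3 and 5. In control libraries they ran between 28156248 and 49628737. Antibiotics libraries 1, 2 and 3 were thus shallower than every control, and library 5 was the deepest of all. With every library thinned to the smallest total, edgeR called 1 of the 32 genes lower, Bhlha15, beside 0.718% of all genes. The median log2 fold change of the 32 was then -0.18.

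**Figure D2:**
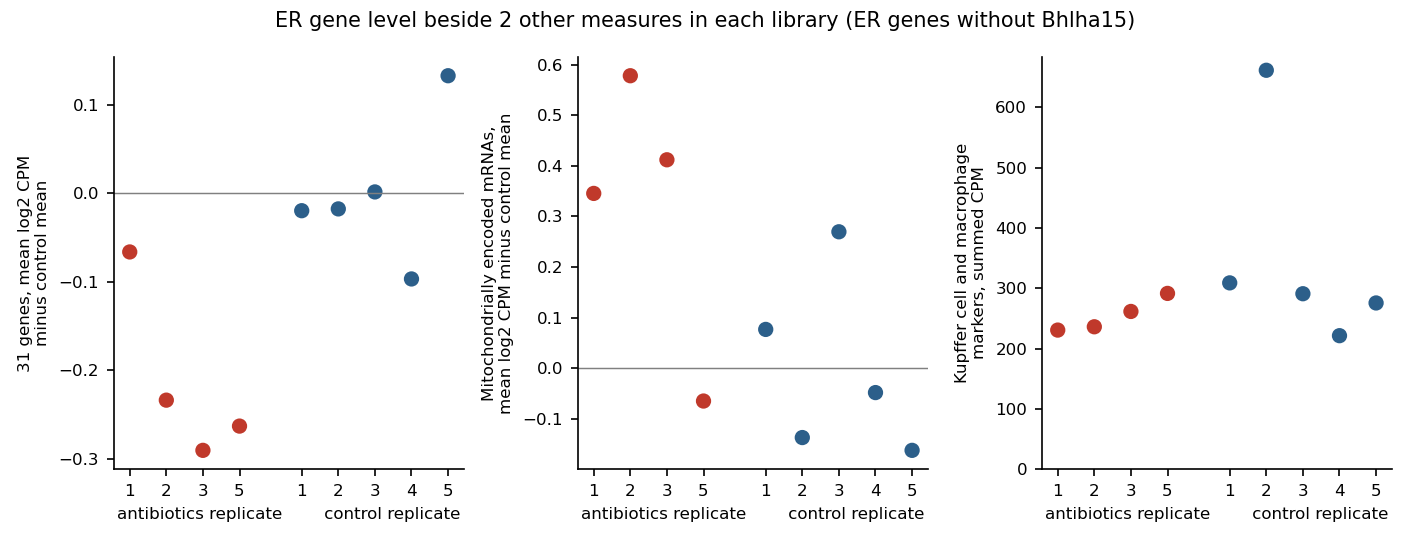
Each panel shows 1 point per library, 4 antibiotics libraries (red) left of 5 control libraries (blue): the mean log2 CPM of the 31 genes without Bhlha15 minus the control mean, the same for mitochondrially encoded mRNAs, and the summed CPM of Kupffer cell and macrophage markers. Antibiotics libraries 2, 3 and 5 lie below all controls in the first panel, where library 1 lies at -0.07, and control library 2 stands apart at 662 CPM in the third.

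Among the sensors and transcription factors, 1 of 6 was called lower, and 5 of 6 were lower at an unadjusted p under 0.05, with a median log2 fold change of -0.39. Over all genes tested, 1.05% were called lower and 8.87% were lower at an unadjusted p under 0.05. Bhlha15 (ENSMUSG00000052271.7, chromosome 5, 144190286 to 144194441, plus strand, GRCm38), also known as MIST1, had 0.719, 0.557, 0.221 and 0.274 CPM in antibiotics libraries 1, 2, 3 and 5. In control libraries 1 to 5 it had 4.12, 2.29, 2.30, 2.22 and 4.77 CPM. The highest antibiotics value, in library 1, lies well below the lowest control value, in library 4. The log2 fold change was -2.94 ± 0.40 (SE, adjusted p = 0.00832 by edgeR).

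The values of Bhlha15 rest on few reads, 11, 10, 4 and 17 estimated counts in the antibiotics libraries and 167, 110, 75, 98 and 130 in the control libraries. Per length it was the scarcest of the 32 transcripts with antibiotics and the scarcest but Derl3 in controls, at 0.127 ± 0.0676 RPKM with antibiotics and 0.899 ± 0.348 RPKM in controls (SD, n = 4 and 5). RPKM here is CPM divided by the summed exon length in kilobases. It passed when each library in turn was left out (9 of 9 fits), with adjusted p between 0.00938 and 0.0482, and had adjusted p of 1.67e-10 with DESeq2 and 0.0152 with limma-voom.

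Bhlha15 is known from pancreatic acinar cells and plasma cells, so the markers of both were read beside it. Of 12 acinar markers, 10 were too low to be tested. Cela2a had 0.412 ± 0.121 CPM with antibiotics and 0.391 ± 0.135 CPM in controls. Cela1 had 14.8 ± 4.97 CPM with antibiotics and 12.4 ± 2.43 CPM in controls. Of 12 plasma cell and B cell markers, 9 were tested, while Ms4a1, Tnfrsf17 and Pou2af1 were too low. The antibody joining chain Jchain had 0.367 ± 0.211 CPM with antibiotics and 0.380 ± 0.109 CPM in controls, and the plasma cell chaperone Mzb1 had 0.432 ± 0.270 CPM with antibiotics and 0.368 ± 0.0895 CPM in controls. Of the 9, 6 had log2 fold changes below 0 and 3 above. The immunoglobulin chains stood lower with antibiotics without passing, Igha at 0.246 ± 0.102 CPM with antibiotics against 0.581 ± 0.334 CPM in controls and Igkc at 1.38 ± 0.260 CPM with antibiotics against 1.86 ± 0.719 CPM in controls. The plasma cell factor Irf4 stood higher without passing, at 0.382 ± 0.0494 CPM with antibiotics against 0.228 ± 0.0933 CPM in controls. At an unadjusted p under 0.05 in edgeR, Igha was lower (0.0382) and Irf4 (0.0423) and Sdc1 were higher. The summed acinar markers ran from 10.5 to 21.2 CPM across antibiotics libraries and from 10.4 to 15.5 CPM across control libraries, and the plasma and B cell markers from 157 to 200 CPM across antibiotics libraries and from 129 to 158 CPM across control libraries. The acinar sum is almost all Cela1, which made up 20.9 of the 21.2 CPM in antibiotics library 1. The plasma and B cell sum is mostly Sdc1, a gene that hepatocytes express too, which rose to 155 ± 15.8 CPM with antibiotics against 123 ± 4.60 CPM in controls (adjusted p = 0.0425). The part of these markers in the fall of Bhlha15 was not tested.

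Eif2ak3 (ENSMUSG00000031668.14, chromosome 6, 70844515 to 70905245, plus strand), which encodes the sensor kinase PERK, had 20.6, 19.9, 14.97 and 11.6 CPM in the antibiotics libraries. In the control libraries it had 37.8, 25.3, 25.3, 28.6 and 23.0 CPM. The groups do not overlap, and antibiotics library 5 was the lowest. The log2 fold change was -0.76 ± 0.19 (adjusted p = 0.0584), just outside the threshold. It passed with DESeq2 (adjusted p = 0.00356), with limma-voom (0.0444) and in 1 of the 9 fits that left out a library, that without control library 5 (0.0465).

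Ern1, the gene of the sensor IRE1, had 62.5, 54.4, 56.0 and 56.2 CPM with antibiotics and 75.1, 78.6, 77.0, 62.0 and 64.5 CPM in controls. Antibiotics library 1 reached into the control range, and the log2 fold change was -0.32 ± 0.09 (adjusted p = 0.0750). Atf6, the sensor that is cut in the Golgi to release a transcription factor, had 94.1 to 101 CPM with antibiotics and 106 to 120 CPM in controls. Its groups do not overlap, though the distance is small (log2 fold change -0.18 ± 0.06, adjusted p = 0.147). All 3 sensors thus stood lower in the antibiotics group without passing in edgeR, and all 3 passed in DESeq2 (adjusted p = 0.0197 for Ern1 and 0.0430 for Atf6).

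Xbp1, the transcription factor whose mRNA IRE1 splices, had 261, 180, 202 and 200 CPM with antibiotics and 180, 215, 157, 158 and 288 CPM in controls. The groups overlap throughout, with antibiotics library 1 and control library 5 highest, and the log2 fold change was 0.08 ± 0.18 (adjusted p = 0.857). The count is per gene, so spliced and unspliced Xbp1 are not told apart. Ddit3, which encodes the stress-induced factor CHOP, was low in all libraries, at 4.77, 4.68, 3.48 and 3.65 CPM with antibiotics and 6.67, 6.30, 5.58, 5.65 and 4.04 CPM in controls. Control library 5 lay within the antibiotics range, and the log2 fold change was -0.46 ± 0.16 (adjusted p = 0.160). Ddit3 shares 68 nt of exon with Mars on the opposite strand.

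**Figure D3:**
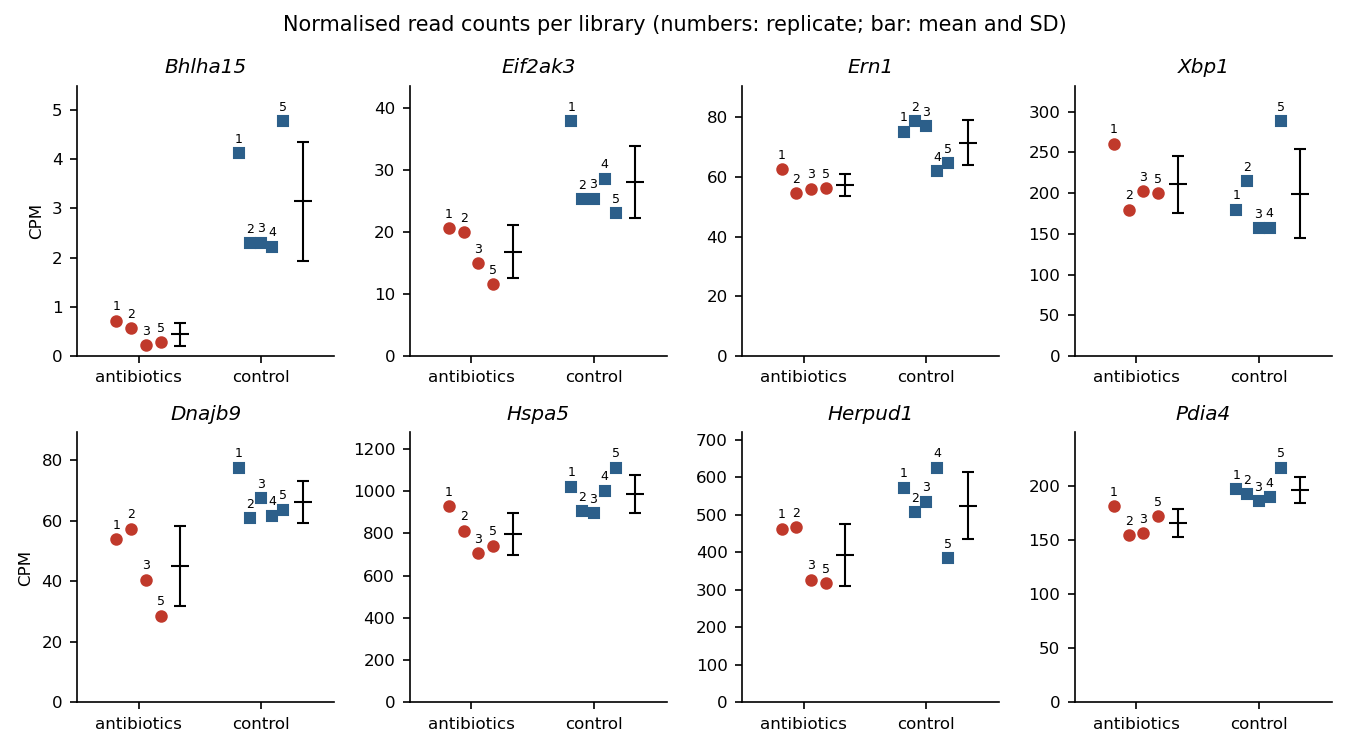
Normalised read counts (CPM) of 8 genes, 1 point per library with its replicate number, 4 antibiotics libraries in red left of 5 control libraries in blue, with the mean and SD beside each group. Bhlha15, Eif2ak3, Dnajb9 and Pdia4 show groups that do not overlap, while Xbp1 overlaps throughout, with control library 5 at 288 CPM and antibiotics library 1 at 261 CPM.

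Of the HSP70 and HSP90 chaperones and their partners, 0 of 9 passed in edgeR, where 1.05% of all genes were called lower. DESeq2 called 4 lower (Manf, Hyou1, Dnajb9 and Hspa5), beside 3.09% of all genes. All 9 had log2 fold changes below 0 (median -0.21), beside 51.4% of all genes. At an unadjusted p under 0.05 in edgeR 4 were lower, beside 8.87% of all genes. Hspa5 (ENSMUSG00000026864.13, chromosome 2, 34771970 to 34777547, plus strand), the gene of the chaperone BiP whose release switches the sensors on, had 927, 812, 706 and 741 CPM with antibiotics. Controls had 1021, 905, 894, 1001 and 1110 CPM. Antibiotics library 1 lay among the controls and the other 3 below them (log2 fold change -0.31 ± 0.11, adjusted p = 0.149).

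Dnajb9, a BiP cochaperone that also restrains IRE1, had 54.0, 57.4, 40.6 and 28.7 CPM with antibiotics and 77.6, 60.9, 67.5, 61.8 and 63.8 CPM in controls. The groups do not overlap, and the antibiotics libraries are the more spread, with library 5 lowest (log2 fold change -0.56 ± 0.17, adjusted p = 0.111). Manf, a secreted factor that binds BiP, had 90.6, 84.2, 60.7 and 71.2 CPM with antibiotics and 109, 93.6, 89.4, 98.5 and 126 CPM in controls (log2 fold change -0.43 ± 0.13, adjusted p = 0.102). Hyou1, the large HSP70 that exchanges nucleotide on BiP, had 233, 197, 151 and 177 CPM with antibiotics and 279, 234, 235, 227 and 293 CPM in controls (log2 fold change -0.42 ± 0.13, adjusted p = 0.104). In Manf and Hyou1 only antibiotics library 1 reached the lowest controls. Manf shares 146 nt of exon with Dcaf1 on the opposite strand.

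The remaining chaperone genes differed less. Hsp90b1, which encodes the abundant GRP94, had 844 to 925 CPM with antibiotics and 856 to 953 CPM in controls (log2 fold change -0.05 ± 0.08). The J-protein genes Dnajb11 and Dnajc3 had log2 fold changes of -0.17 ± 0.09 and -0.12 ± 0.07. Sdf2l1 and Creld2, which are induced strongly in ER stress, were at -0.21 ± 0.20 and -0.15 ± 0.21. In Creld2 antibiotics library 1, at 54.0 CPM, exceeded 4 of the 5 controls, and antibiotics library 3 was the lowest at 24.8 CPM. Adjusted p for these 5 genes ran from 0.352 to 0.776.

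The lectin chaperones hold glycoproteins while they fold. Of Canx (calnexin) and Calr (calreticulin), 0 of 2 passed in edgeR or DESeq2, where 1.05% and 3.09% of all genes were called lower. Canx had 327, 315, 338 and 312 CPM with antibiotics and 348, 351, 357, 362 and 345 CPM in controls, which leaves the groups just apart (log2 fold change -0.13 ± 0.07, adjusted p = 0.337). Calr had 800, 692, 837 and 878 CPM with antibiotics and 786, 960, 877, 803 and 1099 CPM in controls, with overlap (-0.17 ± 0.12, adjusted p = 0.465).

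Protein disulfide isomerases form and reshuffle disulfide bonds, and 0 of 4 passed in edgeR, where 1.05% of all genes were called lower. DESeq2 called 1 lower, Pdia4, beside 3.09% of all genes. Pdia4 (ENSMUSG00000025823.9, chromosome 6, 47796141 to 47813430, minus strand) had 181, 155, 156 and 172 CPM with antibiotics. Controls had 197, 192, 186, 190 and 217 CPM, all above the antibiotics libraries (log2 fold change -0.24 ± 0.08, adjusted p = 0.118). Pdia3, which works on glycoproteins with the lectin chaperones, was also apart, at 405 to 465 CPM with antibiotics and 466 to 524 CPM in controls (log2 fold change -0.15 ± 0.08, adjusted p = 0.329). Pdia6, which can attenuate IRE1, had 304, 281, 350 and 354 CPM with antibiotics and 324, 386, 397, 353 and 466 CPM in controls, with overlap (log2 fold change -0.26 ± 0.11, adjusted p = 0.260).

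P4hb, the founding isomerase and a subunit of the microsomal triglyceride transfer complex, was level between the groups in its mean, at 1568, 1498, 1689 and 1750 CPM with antibiotics and 1422, 1595, 1694, 1445 and 1957 CPM in controls. The log2 fold change was 0.00 ± 0.11 (adjusted p = 0.992). It was the most abundant of the 32 transcripts per length, at 568 ± 39.95 RPKM with antibiotics and 567 ± 76.2 RPKM in controls. Calr followed at 278 ± 27.8 RPKM with antibiotics and 314 ± 44.6 RPKM in controls. With antibiotics Hsp90b1 came next at 218 ± 10.2 RPKM, then Hspa5 at 188 ± 23.1 and Herpud1 at 169 ± 35.4 RPKM. In controls Hspa5 came next at 233 ± 21.1 RPKM, then Hsp90b1 at 226 ± 9.45 and Herpud1 at 225 ± 38.6 RPKM, which do not differ beyond their SDs.

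**Figure D4:**
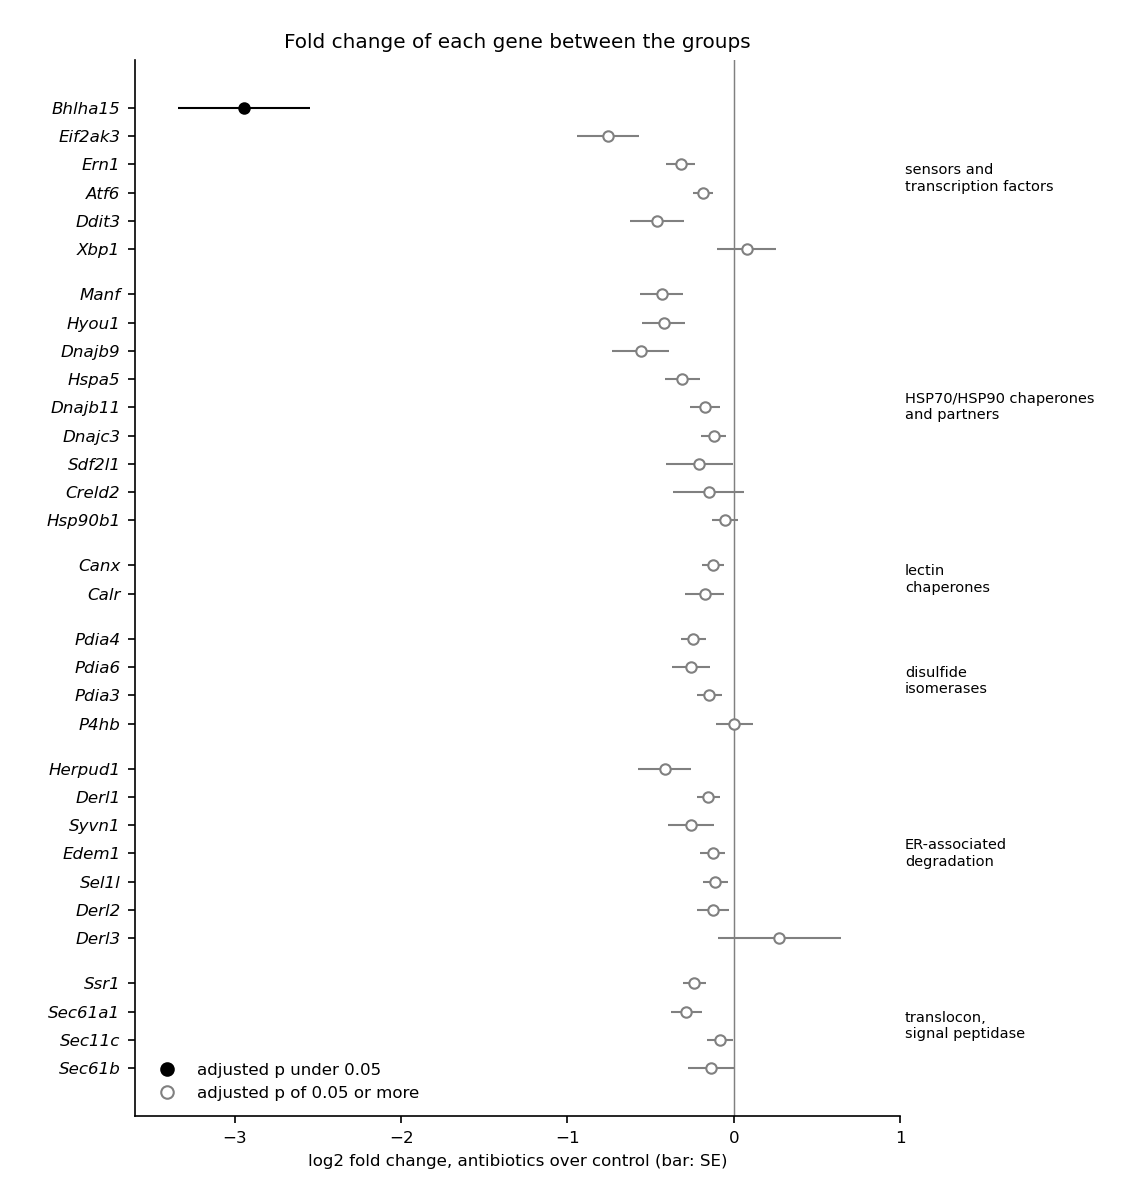
Log2 fold change of each of the 32 genes, antibiotics over control, with its SE as the bar; a filled point has an adjusted p under 0.05 in edgeR. Bhlha15 at -2.94 is the 1 filled point, and 29 of the 32 points lie left of 0, with Xbp1, P4hb and Derl3 at or right of it.

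In ER-associated degradation, 0 of 7 genes passed in edgeR or DESeq2, where 1.05% and 3.09% of all genes were called lower. Log2 fold changes were below 0 in 6 (median -0.13), beside 51.4% of all genes. At an unadjusted p under 0.05 in edgeR 2 were lower, beside 8.87% of all genes. Herpud1 (ENSMUSG00000031770.16, chromosome 8, 94386438 to 94395377, plus strand), a membrane protein that gathers the degradation complex, had 463, 468, 327 and 318 CPM with antibiotics and 572, 507, 535, 626 and 385 CPM in controls. Control library 5, the highest library for most of the genes, was the lowest control here, inside the antibiotics range (log2 fold change -0.42 ± 0.16, adjusted p = 0.198). Derl1, a channel protein for export from the ER, had 119 to 131 CPM with antibiotics and 134 to 157 CPM in controls, without overlap (-0.15 ± 0.07, adjusted p = 0.266).

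Syvn1, the ubiquitin ligase HRD1, had 96.8, 83.2, 63.1 and 65.8 CPM with antibiotics and 87.8, 78.9, 93.1, 87.7 and 114 CPM in controls, with overlap (log2 fold change -0.26 ± 0.14). Its partner Sel1l was at -0.11 ± 0.07 and the mannose-trimming factor Edem1 at -0.13 ± 0.07. Derl2 was at -0.12 ± 0.10 and shares 231 nt of exon with Mis12 on the opposite strand. Derl3, known from secretory cells and plasma cells, was scarce, at 2.88, 1.00, 1.82 and 2.33 CPM with antibiotics and 0.963, 2.47, 2.15, 0.816 and 1.98 CPM in controls. Its log2 fold change of 0.27 ± 0.37 had the widest error but that of Bhlha15, and its groups overlap throughout. Adjusted p for these 5 genes ran from 0.349 to 0.745.

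In the translocon and signal peptidase, 0 of 4 passed in edgeR, where 1.05% of all genes were called lower. DESeq2 called 2 lower (Ssr1 and Sec61a1), beside 3.09% of all genes. At an unadjusted p under 0.05 in edgeR 2 were lower (median -0.19), beside 8.87% of all genes. Ssr1, a subunit of the translocon-associated protein complex, had 92.5, 105, 98.2 and 90.5 CPM with antibiotics and 111, 114, 115, 107 and 122 CPM in controls, without overlap (log2 fold change -0.24 ± 0.07, adjusted p = 0.0872). Sec61a1, the pore of the import channel, had 207, 202, 191 and 209 CPM with antibiotics and 233, 238, 229, 230 and 301 CPM in controls. Its groups do not overlap either, and control library 5 stood well above the rest (-0.28 ± 0.09, adjusted p = 0.130). The small channel subunit Sec61b was at -0.14 ± 0.14 and the signal peptidase catalytic subunit Sec11c at -0.08 ± 0.08 (adjusted p = 0.652 and 0.623). Beside Ddit3, Manf and Derl2, exons of Eif2ak3, Dnajb9, Hsp90b1, Pdia3, Pdia6, Syvn1 and Sec61a1 also overlap a gene on the opposite strand. Whether strand was used in the counting is not stated, so reads could be shared between partners. The partners of Eif2ak3 and Dnajb9 had 0 counts, that of Pdia6 at most 1 and that of Sec61a1 at most 2 in any library, while that of Hsp90b1 had 24 to 90. Other partners held more. Mars had 857 to 3473 counts, where Ddit3 itself had 63 to 303. Dcaf1, the partner of Manf, had 470 to 1579, and Mrpl49, that of Syvn1, had 353 to 1417. Mis12, the partner of Derl2, had 255 to 994, and Catsper2, that of Pdia3, had 30 to 132. The part of shared reads in the fold changes was not tested.

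The median log2 fold change of the genes with an ERSE or ERSE-II in their window was -0.17 over 11 genes, against -0.21 over the 15 genes whose windows held neither. The 6 genes without a window, with a median of -0.23, are in neither set. Only exact matches within the window were counted, so an element outside it or with a changed letter would be missed. The part of the elements in the fold changes was not tested. The largest differences, those of Bhlha15, Eif2ak3 and Dnajb9, were among the 15. Over the 11 genes with an element the log2 fold changes ran from -0.42 to 0.27, with 10 below 0. The 3 whose sequences are printed, Hspa5, Herpud1 and Pdia6, had -0.31, -0.42 and -0.26. They were picked by smallest p in this same comparison, so they do not stand for the 11.

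Outside the 32, 128 tested genes of 7 further ER lists were read in the same fit. Of these, 6 were called lower and 0 higher, beside 1.05% and 1.63% of all genes. At an unadjusted p under 0.05 in edgeR, 37 were lower and 1 higher, beside 8.87% and 9.6% of all genes. Log2 fold changes were below 0 in 103, beside 51.4% of all genes. DESeq2 called 13 lower and 0 higher, beside 3.09% and 3.47% of all genes, and limma-voom 6 lower and 0 higher, beside 0.955% and 1.82%. With 15 heat shock genes added, the same 6 of 143 were called lower. Ostc, a subunit of the oligosaccharyl transferase, fell to 40.9 ± 1.42 CPM with antibiotics against 56.4 ± 4.63 CPM in controls (log2 fold change -0.46 ± 0.07, adjusted p = 0.0140). Ero1lb, the oxidase that recharges disulfide isomerases, fell to 85 ± 7.99 CPM with antibiotics against 116 ± 4.15 CPM in controls (-0.45 ± 0.07, adjusted p = 0.0156). Spcs2, a signal peptidase subunit, fell to 65.1 ± 4.70 CPM with antibiotics against 83.4 ± 6.95 CPM in controls (adjusted p = 0.0417), and Uggt1, which returns misfolded glycoproteins to the lectin chaperones, to 104 ± 6.37 CPM with antibiotics against 131 ± 11.3 CPM in controls (adjusted p = 0.0494).

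Among genes downstream of PERK, Sesn2, a stress-induced inhibitor of mTORC1, fell to 7.27 ± 0.619 CPM with antibiotics against 11.4 ± 1.67 CPM in controls (log2 fold change -0.65 ± 0.12, adjusted p = 0.0230). It was 1 of 10 in that list, whose median was -0.33. Atf4, the factor whose translation PERK raises, had 54.0 ± 4.09 CPM with antibiotics and 67.1 ± 7.396 CPM in controls, without passing (adjusted p = 0.0900). Creb3l2, an ER membrane factor that is cut like ATF6, fell to 28.1 ± 7.22 CPM with antibiotics against 47.1 ± 6.57 CPM in controls (-0.76 ± 0.17, adjusted p = 0.0398), 1 of 8 in its list. In all 6 called genes the groups did not overlap, but they were called in this same comparison, so this adds no support. Of the 128 tested genes, 25 had every antibiotics library below every control library, beside 4.29% of all genes. Each of the 6 calls was lost when certain single libraries were left out. Ero1lb passed in 7 of the 9 such fits, the exceptions being antibiotics library 3 (adjusted p = 0.0579 without it) and library 5 (0.0574). Ostc and Sesn2 passed in 6, and without antibiotics libraries 1, 3 and 5 Ostc had adjusted p of 0.0574, 0.0530 and 0.0552 and Sesn2 of 0.0753, 0.0736 and 0.0760. Spcs2 passed without control library 3 or 5 and otherwise had adjusted p of 0.0543 to 0.122. Creb3l2 passed without antibiotics library 2 or control library 5 and otherwise had 0.0555 to 0.117. Uggt1 passed in 0 of the 9 fits, with 0.0651 to 0.140.

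No gene was called by edgeR among 22 further degradation genes, 24 of ER to Golgi transport, or 6 whose mRNA IRE1 is known to cut in mouse cells. At an unadjusted p under 0.05 those lists held 6, 5 and 0 genes lower and 1, 0 and 0 higher, where 8.87% and 9.6% of all genes were. DESeq2 called 2, 0 and 0 lower and limma-voom 0 in each, beside 3.09% and 0.955% of all genes. Their medians were -0.11, -0.09 and -0.12. The further folding factors had a median of -0.12 and the further translocon, signal peptidase and oligosaccharyl transferase genes of -0.15, with 28 of 29 below 0 in the second. These lists, too, were chosen with earlier results of these data known.

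**Figure D5:**
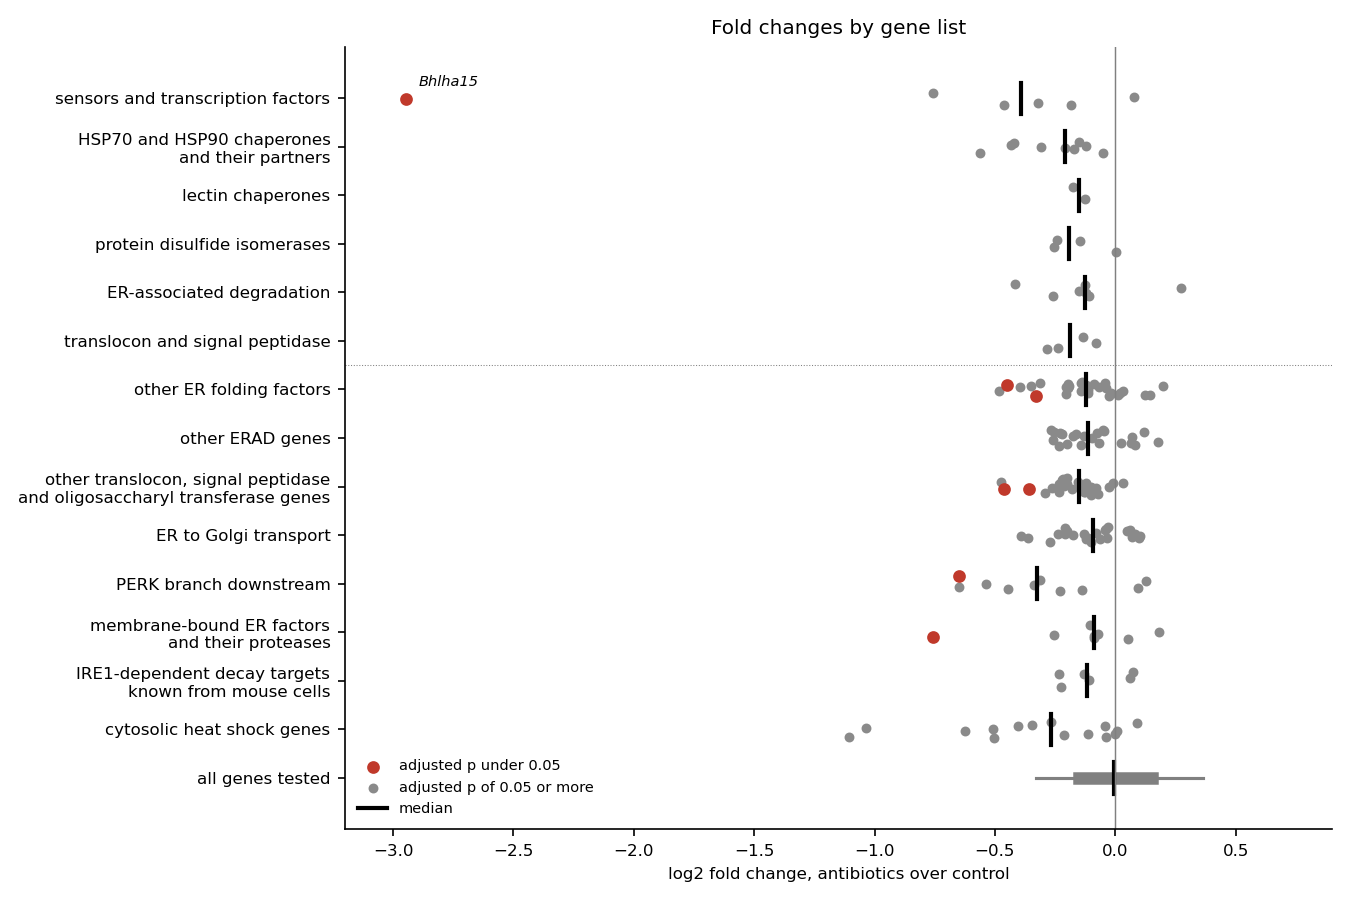
Log2 fold changes, antibiotics over control, of the 6 role groups above the dotted line and of 8 further lists below it, 1 point per gene with the median as a black line; the bottom bar gives all genes tested, the box from the 25th to the 75th and the line from the 10th to the 90th percentile. Every list median is below 0, the lowest being -0.39 for sensors and transcription factors, against -0.01 for all genes tested. The list labelled cytosolic heat shock genes also holds mitochondrial chaperonin genes.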

How the data were processed

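Mouse liver RNA was sequenced in 9 stranded poly(A) libraries, per the labels' protocols. The authors deposited estimated counts per gene, made with Salmon on GRCm38 per the submitters' processing notes. No source used here gives the version or settings of Salmon or the annotation. All deposited values were whole numbers and were used as they stood. Totals ran from 15422891 to 59179622 per library.

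Groups and replicate numbers came from the titles. The filterByExpr function of edgeR 4.0.16 (R 4.3.3; minimum count 10, minimum total 15) left 14873 genes, which were scaled by TMM factors and fitted with the quasi-likelihood F test. Group was the only term, Benjamini-Hochberg adjustment ran over all tested genes, and a gene passed under 0.05. The SE is the size of the log2 fold change divided by the square root of F. CPM are on TMM-scaled libraries, errors are SDs, and log2 CPM used a prior count of 2. The biological coefficient of variation was 16.7%. The fit was tested on simulated data.

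All 32 genes could be named, and of the other lists the called genes and up to 4 genes of smallest p. Members and lists were chosen with earlier results of these data known. Lists are described by counts and medians, with no test. Alternatives were other size factors, library sizes without the 10 most abundant genes, no filter or a mean of 1 CPM, DESeq2 1.42.0, limma-voom 3.58.1, thinning to the smallest total, each library left out in turn and a block on replicate number. Close copies were searched with BLAST+ 2.17.0 (95% identity over 200 nt). Derl1 has 1 in Gm35638 (at most 3 counts). Eif2ak3, Hsp90b1 and Sec61a1 match Gm43292 (0 counts), 1810014B01Rik (24 to 90) and Gm44170 (at most 2), which overlap them on the opposite strand. Nothing in the labels ties each library to a mouse of its own, so the p-values cover only the spread among libraries, which may be technical. Every pair of libraries within a group differed by more than sampling noise (chi-square at least 18.5 per degree of freedom), and no label gives a batch.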

Additional observations from a re-analysis of the deposited data

Results flagged for a closer look

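In 3 of 64 sets of values (32 genes in 2 groups), 1 library lay farther from its group than a test for outliers allows; chance alone flags about 1 in 20. Derl1 had 157 CPM in control library 5, against 134 to 136 CPM in the other controls. Sec61a1 had 301 CPM in the same library, against 229 to 238 CPM in the other controls. Derl2 had 87.2 CPM in antibiotics library 5, against 109 to 113 CPM in the other antibiotics libraries. Without control library 5 the groups of Derl1 and Sec61a1 still did not overlap, since that library is the highest.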

How the results depend on the processing

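Bhlha15 stayed lower and past the threshold in every alternative fit run. Over all genes, 242 were called higher and 156 lower; the counts were 516 and 459 with DESeq2 and 120 and 59 with a replicate block, and 96 were called lower after thinning to the smallest total. Omission of 1 library gave 28 to 276 genes higher and 8 to 191 lower, fewest without antibiotics library 5. Of the 32 genes, 2 were called lower with no filter, with limma-voom, with the block and without control library 5 (each time Bhlha15 and Eif2ak3), 11 with DESeq2, and 1 to 2 over the omissions. The cause of these differences was not tested. Replicate numbers gave no sign of pairing. Correlations of deviations lay between -0.06 and 0.10 for same numbers and between -0.11 and 0.12 for different numbers. Such correlations cannot exclude a pairing in the design, which the labels do not give. The block, under which Eif2ak3 had an adjusted p of 0.0346 in edgeR, is therefore only an alternative.

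Of 576 refits of single genes, 549 kept direction and side of the threshold. The 13 that changed sign were of genes never called: Xbp1 (-0.041 to 0.25 over the omissions, below 0 without antibiotics library 1), Creld2 (-0.33 to 0.017, above 0 without antibiotics library 3 or control library 5), Sec61b (-0.20 to 0.0080, above 0 without control library 5) and P4hb. P4hb was at -0.0024 with DESeq2 size factors in edgeR and with DESeq2, -0.0083 without the 10 most abundant genes, -0.0125 with no filter and -0.0284 with the block, and ranged from -0.037 to 0.079 over the omissions. No scaling moved the median of all genes by 0.1. Depth limits Bhlha15, Derl3 and Ddit3 most, with fewer than 100 counts in some libraries.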

Other observations

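Heat shock genes, which answer unfolded protein outside the ER, were read beside the ER genes. Most are cytosolic, and the list also holds mitochondrial chaperonin genes. Of 15 tested, 0 passed with edgeR, where 1.05% of all genes were called lower and 1.63% higher. At an unadjusted p under 0.05 in edgeR, 8 were lower and 0 higher, where 8.87% and 9.6% of all genes were. Log2 fold changes were below 0 in 13 and above 0 in 2, with a median of -0.27, where 51.4% of all genes were below 0. Every antibiotics library lay below every control library in 1 gene and above in 1 other. Of all genes, 4.29% and 4.59% were apart in these directions. This list, too, was chosen with earlier results of these data known. The small heat shock protein gene Hspb1 had 8.43, 8.98, 8.29 and 10.2 CPM with antibiotics and 13.1, 16.6, 10.8, 11.5 and 17.8 CPM in controls, without overlap (adjusted p = 0.0586). Hsph1, a partner of cytosolic HSP70, had 50.4 ± 9.81 CPM with antibiotics and 71.4 ± 10.4 CPM in controls (adjusted p = 0.0758), and Hsp90aa1 had 146 ± 20.3 CPM with antibiotics and 186 ± 14.96 CPM in controls (adjusted p = 0.0892). The stress-inducible Hspa1b had 4.17 ± 1.63 CPM with antibiotics and 8.47 ± 2.79 CPM in controls, with overlap (adjusted p = 0.0939). DESeq2 called 7 of the 15 lower and 0 higher, beside 3.09% and 3.47% of all genes. With limma-voom 0 were called, beside 0.955% of all genes lower and 1.82% higher. Among the 7 that DESeq2 called were Hspb1 (adjusted p = 0.00712), Hsph1 (0.0147), Hsp90aa1 (0.0227) and Hspa1b (0.0137).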
